A study of Gallus gallus with 25 samples.

Results

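The microRNA miR-22 was followed in embryonic chicken gonads through a pair of array probes, one named for the human miRNA (hsa-miR-22) and one for a zebrafish form (dre-miR-22a). These were 2 of the 657 perfect-match mature miRNA probes on the array, and both were chosen because an earlier look at the same arrays had shown them higher in E9.5 ovaries than in E9.5 testes. The sex difference at E9.5, and every difference that uses the E9.5 arrays, is therefore described below with no test. Only comparisons among E5.5 and E6.5 arrays were tested.

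The tissue was pooled gonads of female and male chicken embryos at embryonic day 5.5 (E5.5, Hamburger-Hamilton stages 27 to 28), E6.5 (stages 29 to 30) and E9.5 (stages 35 to 36). Female and male arrays numbered 4 and 5 at E5.5, 3 and 5 at E6.5, and 4 and 4 at E9.5. Sex came from PCR at the first 2 ages and from the form of the gonad at E9.5, per the labels, which name no genotype, strain or treatment. Of the 25 arrays, 18 carried chip number 4011845 and 7 carried chip number 50636, and every E9.5 array was on chip 4011845. On chip 4011845 there were 3 female and 3 male arrays at E5.5, 1 female and 3 male at E6.5, and 4 female and 4 male at E9.5, and all values below come from those 18 arrays unless the other chip is named. Nothing in the labels says whether replicates numbered 1-1 and 1-2 share a pool of embryos, so the p-values below reflect array-to-array spread, some of it possibly technical.

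A microRNA is a short RNA, cut from a hairpin precursor, that guides an Argonaute protein to messenger RNAs paired with its seed, the bases near its 5′ end, and lowers their output. miR-22 is conserved among vertebrates. The chicken gene table of GRCg7b lists 1 such gene, MIR22. Ordered by start position, it follows TLCD2 and LOC124417312 and comes just before WDR81. In human cells miR-22 is known to repress ESR1, which encodes estrogen receptor alpha. Estrogen made in the chicken ovary is required for its development. Messenger RNAs were not measured here.

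The probe sequences are given first because the readings rest on how closely the probes resemble one another. Each is written 5′ to 3′ as DNA, and capitals mark a base that differs from the hsa-miR-22 probe.

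hsa-miR-22 probe: acagttcttcaactggcagctt

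dre-miR-22a probe: acagttcttcaGctggcagctt

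dre-miR-22b probe: acagCtcttcaactggcagctt

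All 3 probes were 22 bases long. Counted from 1 at the probe's 5′ end, the change from the hsa-miR-22 probe is A12G in dre-miR-22a and T5C in dre-miR-22b. The RNA exactly complementary to each probe follows, with the seed (bases 2 to 8) in capitals, to show that the changes fall outside it.

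RNA complementary to the hsa-miR-22 probe: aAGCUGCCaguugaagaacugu

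RNA complementary to the dre-miR-22a probe: aAGCUGCCagcugaagaacugu

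RNA complementary to the dre-miR-22b probe: aAGCUGCCaguugaagagcugu

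The seed AGCUGCC was shared by these 3 probes and by no other of the 657 (0.457%). dre-miR-22b was no chosen probe and is used below as a near copy of them, picked after its values were seen. The array also held rno-miR-22*, named for the opposite strand of the miR-22 hairpin in rat, likewise picked after its values were seen. The labelling dye binds guanine, and the RNAs complementary to the hsa-miR-22 and dre-miR-22a probes hold 6 guanines each, against a median of 5 over the mature probes. Every mature probe had a partner on the array with a pair of changed bases. The partners of the chosen probes are shown, with the changed bases in capitals, because the ratio of probe to partner is described below.

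Mismatch partner of hsa-miR-22: acagttcttTaactgAcagctt

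Mismatch partner of dre-miR-22a: acagttcttcGgctgAcagctt

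The changes were C10T and G16A for hsa-miR-22, and A11G and G16A for dre-miR-22a, against each one's own perfect match.

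Median foreground intensity per array ran from 79 to 212 on chip 4011845 and from 75 to 458 on chip 50636, at scan exposures of 0.1 to 2 s. Between 51 and 177 mature probes per array were above the negative controls on chip 4011845, and 163 probes that were so on at least 3 of its 18 arrays entered the tests. Intensities below are background-corrected, quantile-normalised and on the log2 scale, and the number of arrays limits their precision. As a check of the tissue, the gonad miRNA miR-202 was above the negative controls on 2 of 4 female and 4 of 4 male E9.5 arrays by its chicken probe (gga-miR-202), and on 3 of 4 female and 4 of 4 male ones by dre-miR-202. The probes hsa-miR-202, mmu-miR-202 and gga-miR-202* were above them on 0 of these arrays.

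At E9.5 the hsa-miR-22 probe was 0.85 higher on the log2 scale in females than in males, a 1.81-fold difference, and no female array overlapped a male one. It read 8.09, 8.69, 8.10 and 8.17 in the female replicates 1-1, 1-2, 2 and 3, against 7.41, 7.69, 7.35 and 7.18 in the male replicates of those numbers. The means were 8.26 ± 0.29 in females and 7.41 ± 0.21 in males (SD, n = 4 each). The lowest female array thus lay above the highest male one, and female replicate 1-2 stood highest of all. Without that array the difference was 0.71. The probe was above the negative controls on 4 of 4 female and 3 of 4 male arrays, and it lay between the 91.5th and 94.5th percentile of mature probes on female arrays and between the 83.5th and 88.6th on male ones. With male arrays set no lower than their lowest level measured above the controls, the fold was 1.76. In gonads sampled whole, more cells carrying miR-22 and more miR-22 per cell cannot be told apart.

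The dre-miR-22a probe was dimmer and showed the same order of the sexes. It read 6.84, 7.56, 6.97 and 6.80 in female replicates 1-1, 1-2, 2 and 3, against 6.56, 6.04, 6.42 and 6.33 in males, with means of 7.04 ± 0.36 and 6.33 ± 0.22 (SD, n = 4 each). The readings differed by 0.71 and did not overlap, and without female replicate 1-2 they differed by 0.53. Before normalisation its foreground was 123, 231, 151 and 143 in female replicates 1-1, 1-2, 2 and 3. In males it was 138, 153, 164 and 93.5, so these raw values overlapped. The negative-control threshold ran from 102.9 to 181.9 on female E9.5 arrays and from 117.9 to 241.7 on male ones. Counts above it therefore depend partly on the array. This probe was above the negative controls on 3 of the 4 female E9.5 arrays and on none of the other 15 arrays of chip 4011845. It therefore entered the tests only through the group in which it was high. With male arrays set to the lowest level measured above the controls, its fold was at least 1.00, so its differences below are between readings and give no size of change.

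**Figure D1:**
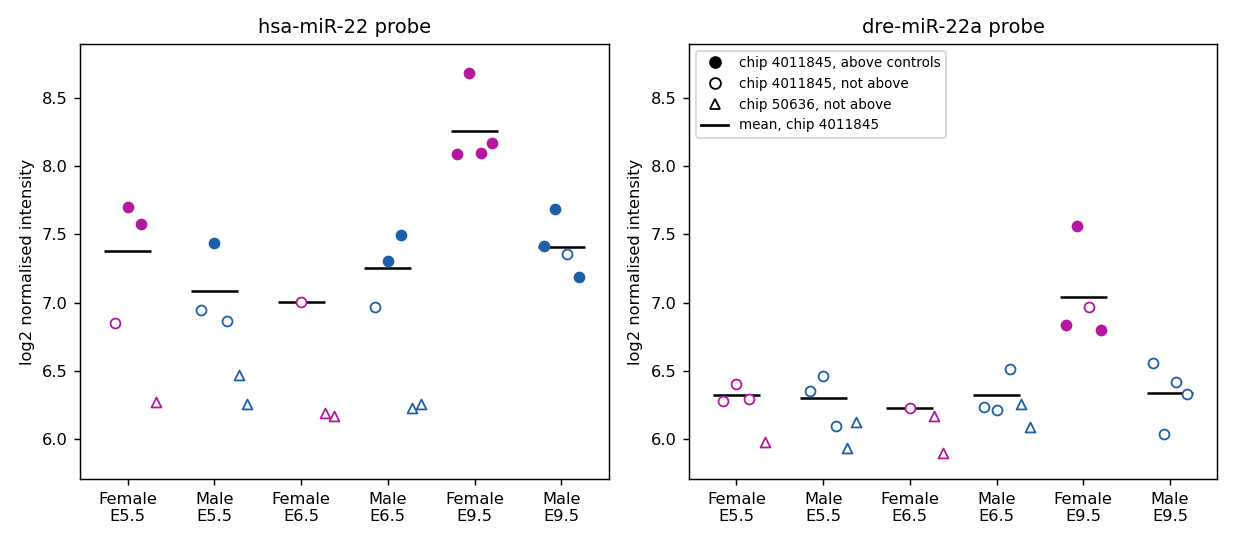
Log2 normalised intensity of the hsa-miR-22 probe (left) and the dre-miR-22a probe (right) in female and male gonads at E5.5, E6.5 and E9.5. Each point is 1 array, filled where the probe was above the negative controls, bars are group means over chip 4011845, and triangles are arrays of chip 50636, which were normalised separately. The 4 female E9.5 arrays lie between 8.09 and 8.69 on the left, above every other array.

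The difference can be set against the whole array. Over the 163 tested probes the median E9.5 difference (female minus male) was -0.012. The hsa-miR-22 probe had rank 2 and dre-miR-22a rank 4 from the top, with dre-miR-20b (0.96) at rank 1 and rno-miR-20b (0.77) at rank 3, both named after their values were seen. Nothing is read from the ranks of the miR-22 probes, which were chosen for this difference. The next probes down were dre-miR-451 (0.64), gga-miR-100 (0.62) and hsa-miR-451 (0.58). dre-miR-451 averaged 8.74 ± 0.51 in females and 8.10 ± 0.42 in males, gga-miR-100 averaged 9.20 ± 0.13 in females and 8.59 ± 0.78 in males, and hsa-miR-451 averaged 9.07 ± 0.52 in females and 8.48 ± 0.69 in males (SD, n = 4 each). Female and male arrays overlapped for each of these 3 probes. Both miR-22 probes were among the 8 of 162 probes (those measured on every E9.5 array) with all female E9.5 arrays above all male ones, a background of 4.94%, and nothing is read from that count because the miR-22 probes were chosen on it. In 5 probes (3.09%) all female arrays lay below all male ones. The other 6 of the female-high probes were probes of miR-15b, miR-16, miR-20b and miR-301.

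The arrays of the E9.5 groups differed in exposure and in the array number recorded by the scanner. Before normalisation, the foreground of hsa-miR-22 was 292.5, 401, 326 and 283 in female replicates 1-1, 1-2, 2 and 3, against 218.5, 346.5, 229 and 161.5 in males, and these raw values overlapped. Among arrays of equal exposure the normalised difference was 0.90 at 0.5 s (1 female and 1 male array), 0.72 at 1 s (2 and 1) and 1.17 at 2 s (1 and 2). The dre-miR-22a readings differed by 0.51, 0.33 and 1.34 at the same exposures. Array numbers 3 and 4 held both sexes. Within them hsa-miR-22 differed by 0.79 (1 female and 2 male arrays) and 0.91 (2 and 1), and dre-miR-22a by 0.31 and 0.58. All of these within-batch differences were positive. That sign was fixed in advance, since no normalised female array overlapped a male one for either probe. The differences reuse the values on which the probes were chosen and are no check on exposure or array number. For dre-miR-22a the values at 1 s and at array number 3 were over 1.5 times smaller than its overall difference. That at 2 s was over 1.5 times larger.

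The ratio of a probe to its mismatch partner uses no normalisation between arrays, but it is made from the same E9.5 foreground values on which the probes were chosen, and adds no independent evidence. The mismatch partner of hsa-miR-22 was above the negative controls on 0 of the 18 arrays, so the ratio sets the probe against array background and is no fold of miR-22. The foreground of hsa-miR-22 divided by that of its mismatch partner was 3.89, 2.87, 3.58 and 2.93 in female replicates 1-1, 1-2, 2 and 3, against 2.01, 2.35, 1.79 and 2.26 in males. The ratios averaged 3.32 ± 0.50 in females and 2.10 ± 0.25 in males (SD, n = 4 each) and did not overlap. Female replicate 1-2, the highest by intensity, had the lowest ratio of its group. For dre-miR-22a the ratio was 1.53 ± 0.05 in females (1.46 to 1.58) and 1.18 ± 0.12 in males (1.03 to 1.31), also without overlap.

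**Figure D2:**
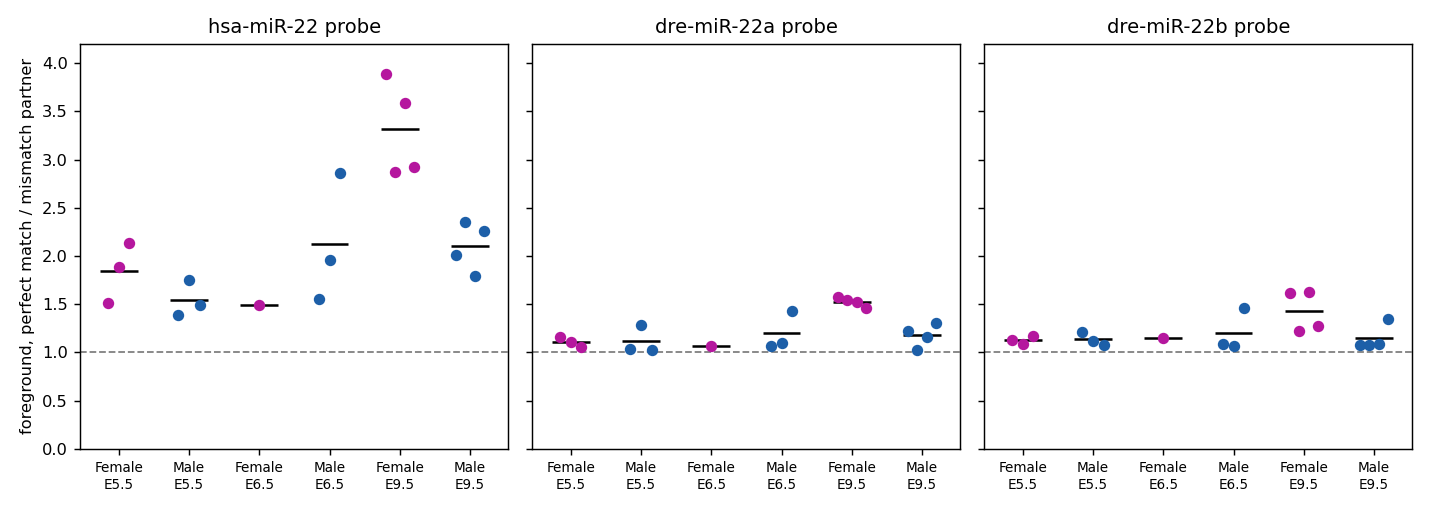
Foreground intensity of each perfect-match probe divided by that of its mismatch partner, per array of chip 4011845, for hsa-miR-22, dre-miR-22a and dre-miR-22b. Bars are group means and the dashed line marks equal signal. For hsa-miR-22 the 4 female E9.5 arrays lie between 2.87 and 3.89 and the 4 male E9.5 arrays between 1.79 and 2.35.

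The near copy dre-miR-22b was above the negative controls on 1 of 18 arrays, too few to be tested, and on 0 of the 4 male E9.5 arrays. It read 6.87, 6.62, 6.95 and 6.52 in female E9.5 replicates 1-1, 1-2, 2 and 3, against 6.16, 6.21, 6.09 and 6.33 in males, and these readings did not overlap. With male arrays set to the lowest level measured above the controls, the female mean was 0.81 of the male one, so no fold is given. Its ratio to the mismatch partner overlapped between the sexes (1.22 to 1.62 in females, 1.08 to 1.35 in males). The opposite strand rno-miR-22* was never above the negative controls, and averaged 5.89 ± 0.05 in females and 5.81 ± 0.07 in males at E9.5 (SD, n = 4 each), with overlapping arrays. The reading for miR-22 thus rests on the probes for 1 strand. How much of the dre-miR-22a and dre-miR-22b signal came from RNA matching the hsa-miR-22 probe was not tested. Across the 18 arrays hsa-miR-22 correlated with dre-miR-22a at r = 0.84, and after the group means were removed (17 arrays) at 0.47. Its correlation with dre-miR-22b was 0.60, and -0.0035 after removal. These probes share arrays, labelling and normalisation, and so are not independent readings.

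The authors' own processed intensities, which are linear and rescaled per array, held the same order. For hsa-miR-22 they were 7869, 12031, 7561 and 7098 in female E9.5 replicates 1-1, 1-2, 2 and 3, against 3099, 4445, 2370 and 2589 in males. All female values thus exceeded all male ones on this scale as well. On each array these values were the same foreground less a constant, then rescaled. They therefore reuse the values on which the probes were chosen and add no independent evidence. The means were 8640 ± 2283 in females and 3126 ± 931 in males (SD, n = 4 each), a ratio of 2.76, against the 1.81-fold difference of the normalised values. These are unlike measures. The first is a ratio of linear means after a constant was subtracted. The second comes from means of log2 values holding an added offset of 50, which shrinks folds. The authors' table held a dre-miR-22a value for 4 of 4 female E9.5 arrays (848 to 3383) and for 1 of 4 male ones (215), and a dre-miR-22b value for 4 of 4 female (67 to 1343) and 0 of 4 male E9.5 arrays.

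**Figure D3:**
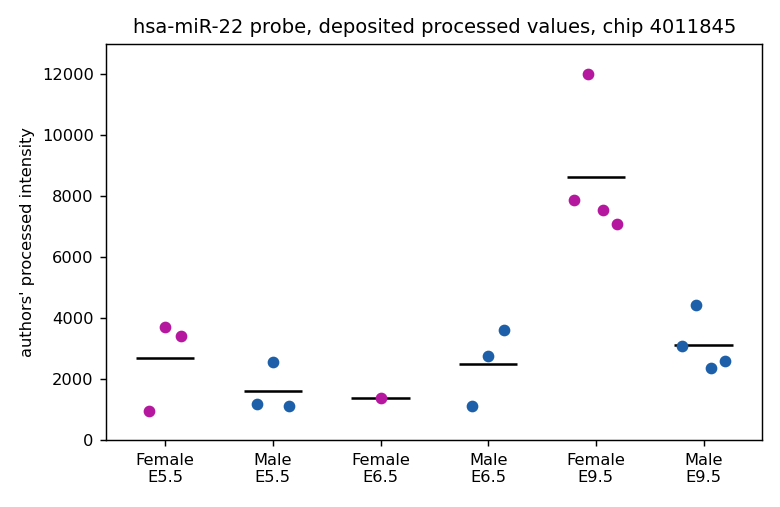
The authors' processed intensity of the hsa-miR-22 probe (linear scale) on each array of chip 4011845, by sex and stage, with bars at group means. Female E9.5 arrays run from 7098 to 12031, and every other array lies at or below 4445.

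Whether the sexes already differed before E9.5 was tested on arrays that played no part in choosing the probes. At E5.5 the hsa-miR-22 probe read 6.85, 7.57 and 7.70 on the female arrays and 6.86, 6.95 and 7.44 on the male arrays. The means were 7.38 ± 0.46 in females and 7.08 ± 0.31 in males (SD, n = 3 each), and the groups overlapped. The difference of 0.29 ± 0.27 (SE, 95% interval -0.28 to 0.87) did not pass (limma adjusted p = 0.918, adjusted over the 163 tested probes), and it ran from 0.13 to 0.56 as single arrays were left out. The probe was above the negative controls on 2 of the 3 female and 1 of the 3 male arrays, so this difference is between readings and gives no size. At E6.5 the single female array read 7.01, against 6.97, 7.30 and 7.49 on the male arrays, so the female value lay inside the male range. That array was not above its negative controls (foreground 288 against a threshold of 383), so its reading is no level. The lowest level measured above the controls on it was 7.94. The limma difference of -0.25 ± 0.39 (SE, interval -1.06 to 0.57, adjusted p = 0.766), in which the lone array was assumed to vary like the other groups, therefore gives no size, and the median of all tested probes was also -0.25. The average over both ages, 0.022 ± 0.24 (SE, limma adjusted p = 0.981), rests in part on the same array. Whether the sex difference at E9.5 differs from the early one was not tested, since the E9.5 value was chosen for its size.

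The dre-miR-22a probe was not above the negative controls on any of the 10 early arrays, so its early values are readings near background and no levels. It read 6.28, 6.29 and 6.40 in E5.5 females and 6.09, 6.35 and 6.46 in E5.5 males. At E6.5 it read 6.22 in the female array and 6.21, 6.23 and 6.51 in the male arrays. With neither sex above the controls no difference is given for it, and its limma tests (adjusted p = 0.971 at E5.5, 0.866 at E6.5 and 0.960 over both) carry no information on the sexes. No probe of the 163 was called in any of these comparisons with limma (0%), and 3, 10 and 12 had an unadjusted p under 0.05 at E5.5, at E6.5 and over both. The ratio of hsa-miR-22 to its mismatch partner in the early gonads was 1.52 to 2.13 in E5.5 females, 1.39 to 1.75 in E5.5 males, 1.49 in the E6.5 female array and 1.56 to 2.86 in E6.5 males, so the sexes overlapped at E5.5 and the female array lay just under the male range at E6.5.

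**Figure D4:**
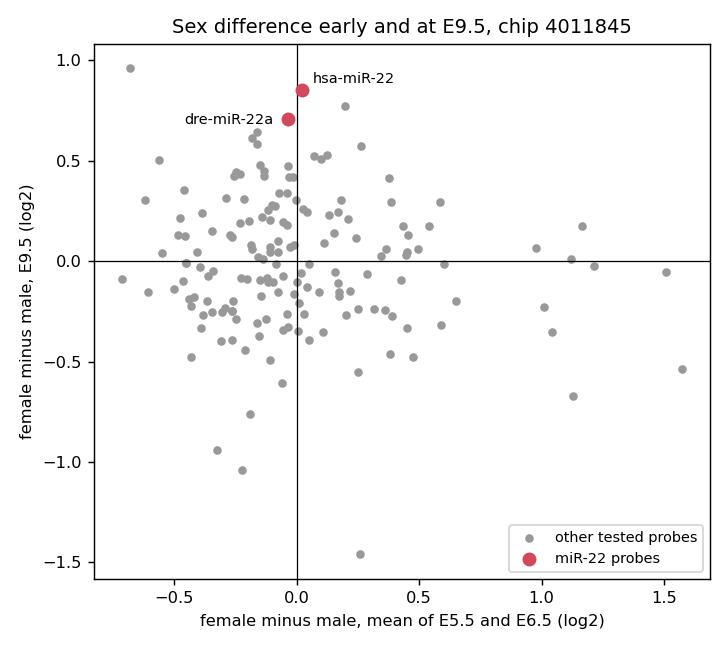
Female minus male difference (log2) of each tested probe at E9.5 against that averaged over E5.5 and E6.5, chip 4011845. The miR-22 probes (red) lie at 0.022 (hsa-miR-22) and -0.037 (dre-miR-22a) on the early axis and at 0.85 and 0.71 on the E9.5 axis, on which they were chosen. dre-miR-22a was not above the controls on any early array. hsa-miR-22 was above them on 5 of the 10 early arrays, and not on the 1 female E6.5 array.

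Neither probe passed the test between E5.5 and E6.5 in either sex. In males hsa-miR-22 differed by 0.17 ± 0.27 (SE, E6.5 minus E5.5, limma adjusted p = 0.998), and by 0.052 to 0.35 as single arrays were left out. The probe was above the controls on 1 of the 3 male E5.5 and 2 of the 3 male E6.5 arrays, so this too gives no size. The fit did not pair same-numbered male arrays. In females the reading of the lone E6.5 array, not above its controls, differed from the E5.5 mean by -0.37, which gives no size (limma adjusted p = 0.754). For dre-miR-22a, not above the controls on any of these arrays, no difference is given (limma adjusted p = 0.886 in females and 1.00 in males). limma called 0% of the 163 probes in both sexes, with 6 in females and 3 in males at an unadjusted p under 0.05.

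The step to E9.5 is described without a test. In females hsa-miR-22 was at least 1.25-fold higher at E9.5 than on the E6.5 array, with that array set to its lowest level measured above the controls (means of the readings 8.26 and 7.01). On the log2 scale this bound was 0.32. The readings differed by 1.26, rank 14 from the top among the 163 tested probes, whose median reading difference was 0.27. That E6.5 reading is no level, and no like bound is given for the other probes. No rise particular to miR-22 is therefore read from either value. The hsa-miR-22 reading was 0.89 higher at E9.5 than at E5.5, where 2 of 3 arrays were above the controls. The median of all tested probes for that step was -0.052. With the E5.5 arrays set no lower than their lowest level measured above the controls, it was 0.54 higher. In males the hsa-miR-22 reading was 0.16 higher at E9.5 than at E6.5 and 0.33 higher than at E5.5. The first value ran from 0.013 to 0.27 as single arrays were left out. The probe was above the controls on 2 of 3 male E6.5 and 1 of 3 male E5.5 arrays. With the early arrays set no lower than their lowest level measured above the controls, the differences were -0.0044 and -0.32. The male readings therefore give no size of change. The dre-miR-22a readings averaged 7.04 in E9.5 females, against 6.22 on the E6.5 female array and 6.32 in E5.5 females, and the same bound gave no fold above 1 for either step. In males it was above the controls on no array at any stage. Ordered by mean, hsa-miR-22 stood at 8.26 in E9.5 females, 7.41 in E9.5 males, 7.38 in E5.5 females, 7.25 in E6.5 males, 7.08 in E5.5 males and 7.01 on the E6.5 female array. From E9.5 males downwards each group's arrays overlapped those of its neighbour, or held the single array within that neighbour's range. The lowest female E9.5 array (8.09) lay above all 10 early arrays, which ran from 6.85 to 7.70. The probe was above the negative controls on 5 of those 10.

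On the 7 arrays of chip 50636 neither probe was above the negative controls. There hsa-miR-22 read 6.17 to 6.47, and its ratio to the mismatch partner was 1.04 to 1.27. The authors' table also held no hsa-miR-22 value on 7 of these 7 arrays, against a value on 18 of 18 for the other chip. The early sexes could therefore be compared for miR-22 on chip 4011845 alone.

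The probes whose level followed hsa-miR-22 most closely over the 18 arrays were hsa-miR-27a (r = 0.88), the array maker's chicken candidate gga_candidate_dre_146b_2or1 (0.86), gga-miR-15b (0.84), gga-miR-218 (0.83) and gga-miR-15a (0.83). The median r over all tested probes was 0.061. After group means were removed (17 arrays) these correlations were 0.84, 0.81, 0.71, 0.72 and 0.82 in the same order. For dre-miR-22a the closest were gga-miR-429 (0.79), gga-miR-15a (0.76), hsa-miR-27a (0.75), hsa-miR-16 (0.72) and the same candidate (0.72), with 0.78, 0.73, 0.56, 0.34 and 0.53 after removal. Most of these readings were near background: hsa-miR-27a, gga-miR-15a and the candidate, listed for both probes, were above the negative controls on 5, 4 and 6 of the 18 arrays, against 12 for hsa-miR-22 and 3 for dre-miR-22a. All of these values share arrays and normalisation and carry no test.

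Other miRNAs known in mammals to repress estrogen receptor alpha were read from a list. Of its 6 probes, 4 were tested, and none was called in any comparison among early arrays. The lowest p belonged to gga-miR-18a, a member of the miR-17-92 cluster, at 0.84 ± 0.26 (SE, female minus male at E5.5, limma adjusted p = 0.737). At E9.5 the differences were 0.13 (gga-miR-18a), 0.41 (gga-miR-18b), 0.011 (gga-miR-221) and 0.019 (mmu-miR-221). Their median was 0.075 against -0.012 over all tested probes, and nothing is read from their shared sign. The tested probes gga-miR-222a and gga-miR-222b were missed by that list. They differed by -0.35 and -0.15 at E9.5, and are named after their values were seen.

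Markers of other cells in the dissected tissue were read on the same arrays. Of 5 red blood cell probes, 2 (both miR-451) were tested, both were higher in E9.5 females with a median difference of 0.61, and 3 were never above the negative controls. The summed intensity of the tested pair was 1534, 1058, 741 and 725 in the 4 E9.5 female arrays, against 844, 904, 417 and 523 in the male ones, and these overlapped. It lay between 175 and 524 on the early arrays. Replicate 1-2 had the highest hsa-miR-22 level of each sex at E9.5, the second highest miR-451 sum of the females and the highest of the males. Female replicate 1-1 had the highest miR-451 sum (1534) and the lowest female hsa-miR-22 level (8.09). Over the 18 arrays dre-miR-451 correlated with hsa-miR-22 at r = 0.81 (rank 8 among the other tested probes), and at 0.54 after group means were removed (17 arrays). The hsa-miR-451 probe ranked lower. Of the 8 tested probes of mesenchyme and smooth muscle, 2 (both miR-143) were higher and 6 lower in E9.5 females, with a median difference of -0.40 and overlapping sums of 2909 to 4433 in females and 4203 to 5723 in males. The 3 tested miR-202 probes had a median E9.5 difference of -0.94, with sums of 298 to 379 in females and 511 to 745 in males. Singly they differed by -1.04 (gga-miR-202), -0.94 (dre-miR-202) and -0.094 (mmu-miR-202). The last of these was above the controls on 0 of the E9.5 arrays. All 10 probes for striated muscle, a tissue in which miR-22 is abundant in mice, and both liver probes were never above the negative controls. Tested epithelial, neural, endothelial and granulosa probes had median E9.5 differences of 0.20 (2 probes), 0.092 (4), 0.24 (1) and -0.12 (2). Of the 15, 9, 2 and 9 such probes on the array, 10, 4, 1 and 5 were never above the controls. The epithelial pair split, at 0.47 (gga-miR-429) and -0.082 (gga-miR-205b). Both tested granulosa probes were miR-383. The candidate gga_candidate_dre_21-1, named for miR-21 but missed by that list, differed by 0.57, with overlapping arrays. It is named after its values were seen. Of 9 pluripotent and early germ cell probes, 7 were never above the controls and 0 were tested. The part of any of these cells in the miR-22 difference was not tested.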

How the data were processed

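Small RNA from pooled gonads was labelled with a Cy5 dye and hybridised to 1-colour arrays, per the labels' protocols. The authors deposited scanner tables of 1412 probes with a foreground intensity for each, and a table of processed intensity values, which were used only as stated. The making of the processed values was not given in the sources used here. Background was corrected by normexp (offset 50) on every spot's foreground median, log2 was taken, and the 657 mature probes were quantile-normalised over the 18 arrays of chip 4011845 with limma 3.58.1 in R 4.3.3. A probe counted as above the negative controls where it passed the 95th percentile of the 7 on its array, and was tested if so on at least 3 arrays. One limma fit of 6 group means served all comparisons, with Benjamini-Hochberg adjustment and a threshold of 0.05. The procedure was tested on simulated data with independent noise and planted changes larger than any miR-22 difference of the main fit. That test gives no power for changes of the size seen here and held no paired arrays. Deviations of same-numbered arrays correlated at r from 0.14 to 0.44 at E9.5 (4 female and male pairs). In males of E5.5 and E6.5 they did so at 0.33 to 0.76 (3 pairs). These values were read from the data and not the labels. No values for arrays of unlike number are given beside them, so the numbers may or may not mark pairs. The fit of group means did not model such pairs, and replicate number entered only as a block among the alternatives. No 2 arrays held identical values. The miR-22 probes, the lists and the rule for named probes were chosen with earlier results of these data known. That rule named both miR-22 probes, the 5 closest to each by Pearson's r, the 3 next below them at E9.5, and called or lowest-p members of the target list. A further list is not reported here. The mature chicken miR-22 sequence was not used here.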

Additional observations from a re-analysis of the deposited data

Results flagged for a closer look

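Among the 4 female E9.5 arrays, the hsa-miR-22 probe of replicate 1-2 stood apart, at 8.69 against 8.09 to 8.17 for the others. Its gap to the nearest array was 0.858 of the range of the group, above the limit for 4 samples. Only groups of 4 were checked in this way (both sexes at E9.5, for both probes), and chance alone marks about 1 in 20 groups. Without that array the female minus male difference was 0.71 for hsa-miR-22 and 0.53 for dre-miR-22a. Its ratio of perfect match to mismatch was 2.87, the lowest of the 4 female arrays, against a highest male ratio of 2.35. That ratio reuses the values on which the probe was chosen and adds no independent evidence.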

How the results depend on the processing

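The female minus male difference at E9.5 was positive in every alternative that gave a value for a probe, from 0.68 to 1.48 for hsa-miR-22 and from 0.47 to 2.73 for dre-miR-22a. These alternatives reprocess the arrays on which the probes were chosen, so their shared sign adds no independent evidence. No miR-22 probe was called in any tested comparison under any alternative. On the early arrays dre-miR-22a was never above the controls. There hsa-miR-22 was above them on only 5 of 10 arrays, and not on the female E6.5 one. Early differences of both probes are therefore of readings only. The hsa-miR-22 differences ran from -0.32 to 0.76 (sexes at E5.5), -0.84 to 0.015 (sexes at E6.5) and -0.85 to 0.34 (E6.5 minus E5.5 in females) over the alternatives, and the cause was not tested. With no background correction dre-miR-22a gave 0.47 for the sexes at E9.5, and 0.53 (over E6.5) and 0.47 (over E5.5) in females. Scaling to the 75th percentile over probes detected on all arrays gave, for hsa-miR-22, 0.015 between the sexes at E6.5 and 0.11 for E6.5 minus E5.5 in females. For dre-miR-22a it gave -0.18 between the sexes at E5.5, 0.19 at E6.5, 0.0081 averaged, 0.32 and -0.051 for E6.5 minus E5.5 in females and males, and 0.54 for E9.5 minus E6.5 in females. The 75th percentile over all mature probes gave -0.0038 for dre-miR-22a in males, E6.5 minus E5.5. All 25 arrays without a chip term gave -0.049 for the averaged sex difference of hsa-miR-22, and 1.74 and 0.53 for E9.5 minus E6.5 in females and males. A term for log2 exposure gave -5.6e-05 for dre-miR-22a at E5.5 and -0.059 for the averaged hsa-miR-22 difference. The scanner's array number as a block gave 0.065 for the averaged dre-miR-22a difference, and 0.71 (hsa-miR-22) and 0.32 (dre-miR-22a) for E9.5 minus E5.5 in males.

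The authors' processed values, log2 as deposited and then quantile-normalised, gave sex differences at E9.5 of 1.48 and 1.42 for hsa-miR-22 and 2.73 and 2.13 for dre-miR-22a (with 1 male value). For hsa-miR-22 they gave averaged early differences of -0.028 and -0.062, E9.5 minus E6.5 in females of 2.59 and 2.70, E9.5 minus E5.5 in females of 1.87 and 1.85, and E9.5 minus E5.5 in males of 1.01 and 1.15. For dre-miR-22a, E9.5 minus E6.5 in males was 0.26 and 0.41.

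The replicate number as a block left the sex differences at E9.5 at 0.85 and 0.71, and changed no call of a miR-22 probe. With this replicate block hsa-miR-22 differed by -0.32 at E5.5, -0.24 averaged, 0.34 for E6.5 minus E5.5 in females and 1.37 for E9.5 minus E5.5 in females, and dre-miR-22a by -0.0083 at E5.5. Same-numbered E5.5 arrays of the 2 sexes (1 pair) correlated at 0.049, and nothing is read from a single pair.

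Where 0 probes were called by limma, testing all mature probes called 13 for the sexes at E6.5, 11 averaged and 12 for E6.5 minus E5.5 in females. The arrays of chip 50636 alone called 18 (sexes at E5.5), 3 (E6.5), 22 (averaged) and 36 (E6.5 minus E5.5 in females), with no value for miR-22, which did not pass the filter there. The 2 compared groups alone called 3 for E6.5 minus E5.5 in females, and 2 were called averaged with either form of the processed values and 3 with the block. With single arrays left out, hsa-miR-22 ran from 0.13 to 0.56 (sexes at E5.5), -0.39 to -0.13 (sexes at E6.5), -0.64 to -0.21 and 0.052 to 0.35 (E6.5 minus E5.5 in females and males) and 0.013 to 0.27 (E9.5 minus E6.5 in males). The averaged difference ran from -0.060 to 0.16 for hsa-miR-22 and from -0.089 to 0.011 for dre-miR-22a, and dre-miR-22a ran from -0.083 to 0.10 at E5.5 and from -0.085 to 0.096 for E6.5 minus E5.5 in males. The averaged count ran from 0 to 6 (6 without male E5.5 replicate 2, 2 without male E6.5 replicate 2, 1 without female E5.5 replicate 5), and the E9.5 sex differences from 0.71 to 0.94 and from 0.54 to 0.79. The miR-22 probes were kept in these fits whether or not they passed the filter. Leaving out female E6.5 replicate 2 removed every comparison with that group. With 1 female E6.5 array on the chip and dre-miR-22a below the controls on all early arrays, the early comparisons limit what could be seen.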
